A study of Mus musculus with 12 samples.

Results

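The genes described here encode the CD3 chains of the T cell receptor and the coreceptors that go with them: Cd3d, Cd3e, Cd3g, Cd247, Cd8a, Cd8b1 and Cd4. They were chosen by name, with earlier results of these data known. They are 7 of the 23134 genes in a table of normalised read counts, and all 7 passed the filter on low values. The table covers 12 samples of RNA from total bone marrow of wild-type C57BL/6 mice, all of which had received Vk12653 cells by intravenous injection. Vk12653 is a transplantable myeloma line derived from Vk*MYC mice. Untreated marrow, called D0, was taken 10 days after that injection. The other groups, D4, D11 and D18, are named for days of treatment with 3H3, an agonist antibody to the costimulatory receptor CD137, given intraperitoneally at 10 µg per dose, 2 times a week. The labels give neither age nor sex. They were taken 14, 21 and 28 days after the myeloma cells. Each group had 3 samples. Treatment time and tumour time rise together and no untreated marrow of a later day is analysed here, so the effects of antibody and of elapsed time cannot be told apart. Whether a sample is 1 mouse or a pool is not stated. The p-values set differences between groups against the spread among these samples only.

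The T cell receptor recognises peptide on MHC molecules through its variable alpha and beta chains, which have no signalling tails of their own. Signalling passes through CD3: the delta, epsilon and gamma chains, encoded by Cd3d, Cd3e and Cd3g, pair as epsilon-delta and epsilon-gamma dimers, and the zeta chain, encoded by Cd247, forms a homodimer with the most activation motifs. CD8, mainly an alpha-beta heterodimer on conventional T cells, binds MHC class I, and CD4 binds MHC class II. Both coreceptors bring the kinase Lck to the receptor. In mouse marrow these transcripts mark a minority of cells beside abundant myeloid and erythroid cells. Cd247 is also used by natural killer cells, CD8 alpha homodimers occur on some dendritic cells and unconventional T cells, and CD4 is found on plasmacytoid and other dendritic cells. In bulk RNA, more cells of a type and more RNA per cell cannot be told apart.

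Cd3g, Cd3d and Cd3e are neighbours on chromosome 9, and Cd8b1 and Cd8a are neighbours on chromosome 6 (GRCm38). Cd3g (ENSMUSG00000002033.14) lies on the minus strand from 44969572 to 44980431. Cd3d (ENSMUSG00000032094.8) lies on the plus strand from 44981786 to 44987339, so that the start sites of the pair point away from each other, 1.355 kb apart. Cd3e (ENSMUSG00000032093.7) lies on the minus strand from 44998740 to 45009627. On chromosome 6, Cd8b1 (ENSMUSG00000053044.8) spans 71322788 to 71337494 and Cd8a (ENSMUSG00000053977.13) spans 71373427 to 71379173, both on the plus strand, with start sites 50.64 kb apart. Cd4 (ENSMUSG00000023274.14) lies farther along chromosome 6, on the minus strand from 124864692 to 124888221. Cd247 (ENSMUSG00000005763.15) is on chromosome 1, plus strand, between 165788681 and 165877277.

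The promoters of the CD3 cluster and of Cd8a are shown because these genes rose together in the data below. RefSeq sequences (GRCm38.p6) that start 250 bases before and end 50 bases after the start site matched 5 of the 7 genes, namely Cd3d, Cd3e, Cd3g, Cd247 and Cd8a. Capitals mark each match on either strand to AGGAAG, a form of the ETS site that reads CTTCCT on the other strand. They also mark the E-box CANNTG, with N for any base.
Cd3g, chr9:44980382-44980681, minus strand: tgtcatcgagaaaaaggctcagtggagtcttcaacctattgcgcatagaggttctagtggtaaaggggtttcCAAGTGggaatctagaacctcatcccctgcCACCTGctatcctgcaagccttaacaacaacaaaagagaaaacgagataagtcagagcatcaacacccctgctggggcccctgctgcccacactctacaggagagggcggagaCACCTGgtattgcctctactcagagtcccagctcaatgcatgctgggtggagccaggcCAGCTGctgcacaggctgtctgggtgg
Cd3d, chr9:44981536-44981835, plus strand: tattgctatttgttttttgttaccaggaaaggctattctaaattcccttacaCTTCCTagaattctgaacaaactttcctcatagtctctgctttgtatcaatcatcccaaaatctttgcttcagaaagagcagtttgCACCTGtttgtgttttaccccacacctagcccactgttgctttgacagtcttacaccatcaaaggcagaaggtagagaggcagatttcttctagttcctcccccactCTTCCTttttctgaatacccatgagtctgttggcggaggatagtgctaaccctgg
Cd3e, chr9:45009562-45009861, minus strand: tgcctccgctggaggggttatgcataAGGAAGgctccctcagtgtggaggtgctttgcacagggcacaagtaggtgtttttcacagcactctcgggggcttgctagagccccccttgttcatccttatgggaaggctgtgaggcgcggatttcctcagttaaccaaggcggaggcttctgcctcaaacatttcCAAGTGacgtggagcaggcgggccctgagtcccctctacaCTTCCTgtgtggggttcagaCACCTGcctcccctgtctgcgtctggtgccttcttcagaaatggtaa
Cd8a, chr6:71373177-71373476, plus strand: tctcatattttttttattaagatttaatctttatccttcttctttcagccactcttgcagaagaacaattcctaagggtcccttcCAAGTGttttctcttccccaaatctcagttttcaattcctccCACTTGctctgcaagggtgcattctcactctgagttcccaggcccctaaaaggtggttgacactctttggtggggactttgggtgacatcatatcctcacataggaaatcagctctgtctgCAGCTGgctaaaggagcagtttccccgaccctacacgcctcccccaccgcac
The letters AGGAAG occur 2 times each in the windows of Cd3d, Cd3e and Cd247 and not in those of Cd3g and Cd8a. Of 32851 mouse promoter windows of this length, 35.4% hold them. E-box letters occur in all 5 windows, from 1 in Cd3d to 4 in Cd3g, and in 72.3% of all windows. A TCF and LEF core, CTTTGA on either strand, occurs 2 times in Cd3d and 1 time in Cd247, against 16% of all windows. None of the 5 windows holds TATAAA, which 13.6% of all windows do, or the RUNX core ACCACA, which 16.8% do. The letters TGATAA, a form of the site of zinc finger factors that include Gata3, are absent from all 5 and occur in 9.05% of all windows. The form AGATAA, which the Cd3g window holds, was not searched. The cyclic AMP response element TGACGTCA is also absent, and 1.79% of all windows hold it. Matches did not overlap each other. These are letters in a window, and other forms of each site were not searched. None of the measurements here bears on whether a factor binds these letters.

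Normalised totals were close to each other, at 19.16 to 20.84 M per sample. The reads behind them, estimated from the spacing of low values, were 21.7 to 25.3 M at D0, 16 to 17.8 M at D4, 16.8 to 24.3 M at D11 and 18.6 to 23.6 M at D18, so the D4 libraries were the shallowest group. Summed neutrophil markers (S100a8, S100a9, Ngp and 8 others in the table) held 1478551 to 2022564 normalised counts in each sample. None of the 11 passed the test described below at D4, D11 or D18. By that test 2.40% of all genes were higher and 2.24% lower at D4, 3.20% and 2.12% at D11, and 5.29% and 3.91% at D18. At these shares, the absence of calls among 11 genes says little by itself. Some libraries stood apart on the 7 genes. D0 replicate 1 and D4 replicate 2 were the lowest of their group for all 7. D18 replicate 3 was the highest of its group for 6 and the lowest for Cd4, and D18 replicate 1 was the lowest for the other 6.

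**Figure D1:**
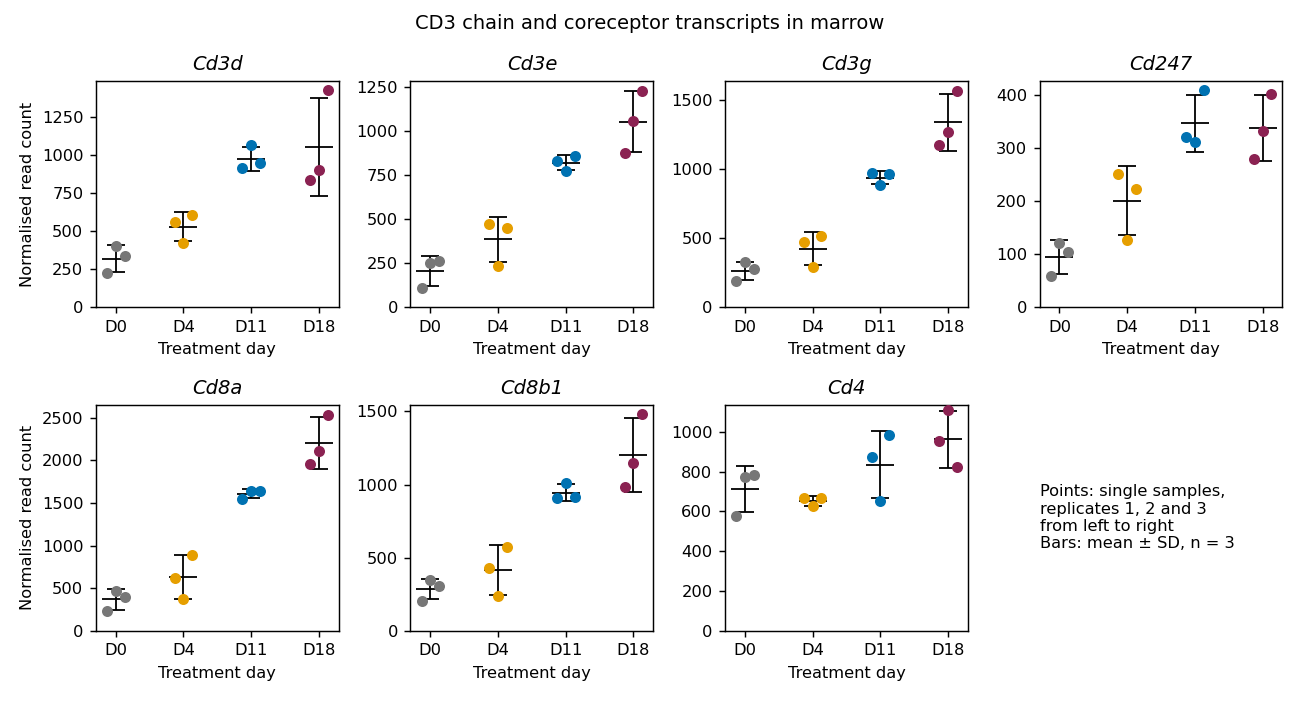
Normalised read counts of the 7 genes (vertical axes, each from 0) by treatment day (horizontal axes), with 1 point per sample and bars for the mean ± SD of 3 samples. For 6 genes all D11 and D18 points lie above all D0 points, whereas D0 and D11 points of Cd4 overlap.

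The first question was whether the receptor's signalling chains increased in marrow during treatment. They did at D11 and D18: all 4 CD3 genes rose, by 1.65 to 2.44 on the log2 scale. At D4 the 4 values were higher than at D0 on average, and 1 of them, Cd247, rose. Here a gene rose or fell if its adjusted p in the limma fit over all 14883 genes that passed the filter was under 0.05; of these genes 2.40% rose at D4, 3.20% at D11 and 5.29% at D18.

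Cd3e encodes the epsilon chain, which is shared by both CD3 dimers. It had 108, 248 and 260 normalised counts in D0 replicates 1 to 3, and 470, 236 and 448 at D4. It had 827, 774 and 856 at D11 and 877, 1055 and 1226 at D18. The D0 and D4 groups overlap through D4 replicate 2, every D11 and D18 sample lies above all samples of both, and every D18 sample lies above every D11 sample. The log2 change from D0 was 0.94 ± 0.30 (SE) at D4 (limma, adjusted p = 0.0918), 2.09 ± 0.30 at D11 (adjusted p = 0.000853) and 2.44 ± 0.30 at D18 (adjusted p = 0.000154).

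Cd3d encodes the delta chain. Its values were 223, 404 and 334 at D0, then 558, 425 and 608 at D4. They were 914, 1068 and 952 at D11 and 841, 901 and 1430 at D18. Every D4 sample lies above every D0 sample, with the gap between 404 and 425, and D11 and D18 overlap. The log2 change was 0.75 ± 0.22 at D4 (adjusted p = 0.0676), 1.65 ± 0.22 at D11 (adjusted p = 0.000433) and 1.72 ± 0.22 at D18 (adjusted p = 0.000206). The D4 change passes the threshold without D0 replicate 2 (adjusted p = 0.0429) and without D18 replicate 3 (adjusted p = 0.0239). It is 0.51 without D0 replicate 1 (adjusted p = 0.238), and 0.175 with estimated depth as a covariate (adjusted p = 0.873). Estimated depths of D0 and D4 do not overlap, so for any gene this covariate cannot tell depth from day at D4.

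Cd3g encodes the gamma chain, the partner of epsilon in the other dimer. It stood at 192, 324 and 273 at D0, and at 469, 287 and 514 at D4. It reached 971, 882 and 961 at D11 and 1176, 1266 and 1568 at D18. D4 replicate 2 lies within the D0 range, and the D11 and D18 groups lie above both earlier groups and do not overlap each other. The log2 change was 0.67 ± 0.21 at D4 (adjusted p = 0.0829), 1.86 ± 0.21 at D11 (adjusted p = 0.000101) and 2.36 ± 0.21 at D18 (adjusted p = 5.53e-06). Without D4 replicate 2 the D4 changes of Cd3g and Cd3e pass, at adjusted p = 0.0139 and 0.0317. Other settings lower them: the Cd3e value is 0.53 without D0 replicate 1 (adjusted p = 0.286), and with estimated depth as a covariate Cd3e is at 0.37 (adjusted p = 0.809) and Cd3g at 0.36 (adjusted p = 0.723).

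Cd247, the zeta chain gene, had the lowest counts of the 7. It gave 59, 120 and 103 at D0 and 251, 127 and 222 at D4. It gave 320, 310 and 408 at D11, and 278, 332 and 401 at D18. Every D4 sample lies above every D0 sample, if narrowly for D4 replicate 2, and D11 and D18 cover the same range. The log2 change was 1.08 ± 0.27 at D4 (adjusted p = 0.0364), 1.92 ± 0.27 at D11 (adjusted p = 0.000762) and 1.88 ± 0.27 at D18 (adjusted p = 0.000593). The D4 call rests on single libraries: it is lost without D0 replicate 1 (adjusted p = 0.137), D0 replicate 3 (0.0746), D4 replicate 1 (0.107), D4 replicate 3 (0.136) or D11 replicate 1 (0.0557). It is also lost with the estimated depth as a covariate (log2 change 0.57, adjusted p = 0.633).

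Of the exon bases of Cd247, 3213 of 5329 also belong to other annotated genes: 3007 to Pou2f1, a transcription factor gene on the opposite strand, and 206 to Gm16565 on the same strand. Whether the authors' counting used strand is not given in the sources used here, although the kit was a stranded one. Pou2f1 had means of 944 ± 32.9, 727 ± 79.5, 758 ± 68.4 and 761 ± 169 (SD, n = 3) at D0, D4, D11 and D18. It did not pass the test on any day (adjusted p = 0.137, 0.218 and 0.160 against D0). The part of the shared bases in the Cd247 values was not tested. Cd3e shares 135 of 4080 exon bases with an antisense gene, and the other 5 genes share none.

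Natural killer cells express Cd247 without the other CD3 chains on the surface. Of 16 natural killer cell markers, 1 rose and none fell at D4, where the median log2 change was 0.43. At D11 3 rose and 3 fell, and at D18 3 rose and 8 fell, with medians of -0.53 and -0.87; the median over all genes was 0.01 at D4 and 0.00 on both later days. Of all genes 2.40% rose and 2.24% fell at D4, 3.20% and 2.12% at D11, and 5.29% and 3.91% at D18. The markers that rose, Eomes, Prf1 and Il2rb, are also expressed by CD8 T cells, and Eomes and Prf1 recur in the CD8 list below. Which cells the changes of the markers came from was not tested. Ncr1, which encodes the receptor NKp46, had 234 ± 36.4 counts at D0 and 262 ± 105 at D4, then fell to 72 ± 11.5 at D11 (log2 change -1.69 ± 0.45, adjusted p = 0.0455) and 65.3 ± 46.5 at D18 (log2 change -2.12 ± 0.45, adjusted p = 0.00917). The 16 markers together held 25394 to 28024 counts at D0, 23738 to 31725 at D4, 26109 to 30483 at D11 and 27239 to 30754 at D18, mostly from Tyrobp, Fcer1g and Fcgr3, which myeloid cells share. No marker was at 0 in all samples, and the part of natural killer cells in the Cd247 values was not tested.

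The CD8 genes followed the CD3 chains. Cd8a, which encodes the alpha chain present in both CD8 dimers, had 230, 472 and 400 normalised counts at D0 and 625, 379 and 887 at D4. It had 1551, 1640 and 1639 at D11 and 1953, 2114 and 2538 at D18. Values within D11 are nearly equal, D4 is the most spread of the groups for its mean and overlaps D0, and the D18 samples lie above all others. The log2 change was 0.76 ± 0.27 at D4 (adjusted p = 0.128), 2.19 ± 0.27 at D11 (adjusted p = 0.000245) and 2.63 ± 0.27 at D18 (adjusted p = 2.53e-05). The D18 value was the largest of the 21 changes of these genes from D0.

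Cd8b1, which encodes the beta chain of the heterodimer, had 207, 344 and 304 at D0 and 429, 237 and 576 at D4. It had 905, 1013 and 916 at D11 and 981, 1146 and 1482 at D18. D0 and D4 overlap, as do D11 and D18, while the earlier and the later pair of groups do not. The log2 change was 0.48 ± 0.26 at D4 (adjusted p = 0.335), 1.76 ± 0.26 at D11 (adjusted p = 0.00127) and 2.08 ± 0.26 at D18 (adjusted p = 0.000194). The D4 values of both genes depend on single libraries. That of Cd8a is 1.08 without D4 replicate 2, which passes (adjusted p = 0.0285), but 0.45 without D0 replicate 1 (adjusted p = 0.410) and 0.47 without D4 replicate 3 (adjusted p = 0.399). That of Cd8b1 is 0.83 without D4 replicate 2 (adjusted p = 0.0512), 0.26 without D0 replicate 1 (adjusted p = 0.704) and 0.19 without D4 replicate 3 (adjusted p = 0.752). With estimated depth as a covariate they are 0.27 and -0.09 (adjusted p = 0.860 and 0.958).

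Cd4 did not follow them. Its counts were 577, 772 and 784 at D0, and 669, 626 and 666 at D4. They were 874, 651 and 983 at D11 and 953, 1110 and 823 at D18. The D4 samples lie inside the D0 range, D11 overlaps it, and the lowest D18 sample lies just above the highest D0 sample. The log2 change was -0.11 ± 0.15 at D4 (adjusted p = 0.744), 0.23 ± 0.15 at D11 (adjusted p = 0.450) and 0.44 ± 0.15 at D18 (adjusted p = 0.0933). The D18 change passes without D11 replicate 2 (adjusted p = 0.0496) or without D18 replicate 3 (adjusted p = 0.0494).

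Markers of dendritic cells, macrophages and monocytes, some of which carry CD4, mostly did not pass, and those called fell at D4 and D11. Of all genes 2.40% rose and 2.24% fell at D4, 3.20% and 2.12% at D11, and 5.29% and 3.91% at D18. Of 7 plasmacytoid dendritic cell markers, 1 fell at D4 (Siglech), 1 fell at D11 (Spib) and 1 rose at D18 (Bst2). Their summed counts ranged from 12333 to 13750 at D0, 10089 to 13833 at D4, 9658 to 10103 at D11 and 9852 to 12913 at D18. Siglech, a surface lectin of these cells, stood at 2453 ± 67.6 at D0 and 1794 ± 42.6 at D4 (log2 change -0.45 ± 0.11, adjusted p = 0.0328). Of 11 conventional dendritic cell markers 1 fell at D4, 2 fell at D11, and 1 rose (Naaa) and 2 fell at D18, with sums of 10429 to 11264, 10044 to 10692, 9808 to 10391 and 9285 to 11043 in day order. Resident macrophage markers held 11530 to 13479 counts at D0 and 8069 to 10669 at D18, when 5 of 13 fell; none fell at D4 and 1 at D11. Of 9 monocyte markers 2 fell at D4, none at D11 and 2 at D18. None of these markers was at 0 in all samples, and the part of these cells in the Cd4 values was not tested.

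**Figure D2:**
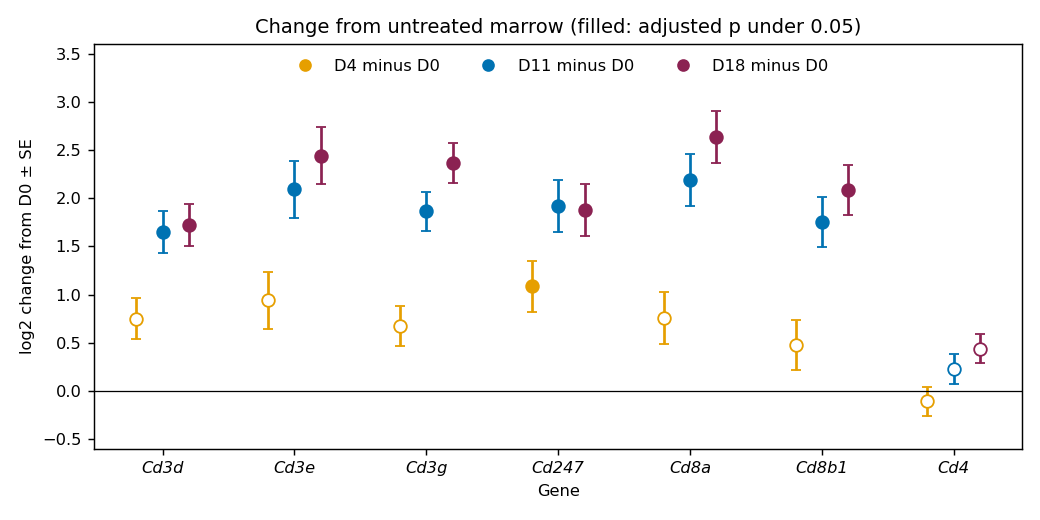
Log2 change from D0 ± SE (vertical axis) of each gene (horizontal axis) at D4, D11 and D18, from limma over all genes; filled points passed an adjusted p of 0.05. The only filled D4 point is Cd247 at 1.08, and Cd4 has no filled point.

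The members' counts were read against those of all genes. At D4 1 of the 7 rose, where 2.40% of 14883 genes tested rose. At D11 6 rose against 3.20% of genes, and at D18 6 rose against 5.29%. None fell on any day. In the test for any difference among the 4 days, 6 of 7 passed, against 9.47% of genes, and Cd4 did not (adjusted p = 0.0978). By ranges alone, 2 members at D4 (Cd3d and Cd247), 6 at D11 and all 7 at D18 had every treated sample above every D0 sample, where 13.5%, 14.1% and 13.8% of genes did. The 3 comparisons share the D0 samples, so their counts are not separate evidence.

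Between treated days, D11 and D18 each stood above D4. At D11 against D4, 3 of the 7 rose, against 0.726% of genes: Cd3g by 1.19 ± 0.21 on the log2 scale (adjusted p = 0.00761), Cd8a by 1.44 ± 0.27 (adjusted p = 0.0130) and Cd8b1 by 1.28 ± 0.26 (adjusted p = 0.0225). By ranges, every D11 sample lay above every D4 sample for 6 members (8.80% of genes), Cd4 being the exception. The calls of Cd8a and Cd8b1 are lost without any 1 of the D11 replicates (adjusted p = 0.0504 to 0.0831), and that of Cd8b1 also without D4 replicate 2 (0.0504). The values for Cd3d, Cd3e and Cd247 were 0.89 ± 0.22 (adjusted p = 0.0587), 1.15 ± 0.30 (adjusted p = 0.0781) and 0.83 ± 0.27 (adjusted p = 0.179). Cd3d passes without D0 replicate 1 (0.0225), D0 replicate 2 (0.0411), D18 replicate 1 (0.0494) or D18 replicate 3 (0.0184), and Cd3e without D0 replicate 1 (0.0108).

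At D18 against D4, 5 of the 7 rose, against 2.77% of genes. Cd8a rose by 1.88 ± 0.27 (adjusted p = 0.000907), Cd3g by 1.69 ± 0.21 (adjusted p = 0.000233) and Cd8b1 by 1.61 ± 0.26 (adjusted p = 0.00256). Cd3e rose by 1.50 ± 0.30 (adjusted p = 0.00851) and Cd3d by 0.97 ± 0.22 (adjusted p = 0.0178), the latter not without D4 replicate 2 (adjusted p = 0.0836). All 7 members had every D18 sample above every D4 sample, where 9.85% of genes did. Cd247 differed by 0.79 ± 0.27 (adjusted p = 0.118) and Cd4 by 0.55 ± 0.15 (adjusted p = 0.0539). Cd4 passes without D0 replicate 1 (0.0335), D11 replicate 2 (0.0263), D11 replicate 3 (0.0456) or D18 replicate 3 (0.0257).

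From D11 to D18 none of the 7 passed the limma test, where 1 of 14883 genes did (0.00672%). At an unadjusted p under 0.05 there were 1 of the 7 and 1040 genes. The single member was Cd3g, with a log2 change of 0.50 ± 0.21 (adjusted p = 0.642). Cd8a was next at 0.44 ± 0.27 and Cd3e at 0.35 ± 0.30, and these 3 had every D18 sample above every D11 sample, as did 5.11% of genes. Cd3d and Cd247 had the smallest differences, at 0.07 ± 0.22 and -0.04 ± 0.27.

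A ratio within a sample does not depend on how that library was scaled. The ratio of Cd8a to Cd4 counts was 0.399, 0.611 and 0.510 in the D0 replicates and 0.934, 0.605 and 1.33 at D4. It was 1.77, 2.52 and 1.67 at D11 and 2.05, 1.91 and 3.08 at D18. Cd8a counts were below Cd4 counts in all D0 samples and above them in all D11 and D18 samples, and of the D4 samples 1 was above and 2 were below. Since the genes differ in length, a ratio of 1 does not mean equal numbers of transcripts, and only its change is read here. The mean went from 0.507 ± 0.106 (SD, n = 3) at D0 to 0.957 ± 0.364, 1.99 ± 0.464 and 2.35 ± 0.643. The ratio differed among the 4 days (exact permutation test of the F statistic over 15400 partitions, p = 0.000649, adjusted over 8 ratios p = 0.0026). In ratio of geometric means, D18 stood 4.58-fold and D11 3.91-fold above D0, without overlap. A pair of days cannot give an exact two-sided p below 0.1, and both gave p = 0.1. D4 was 1.82-fold above D0 with overlap (exact permutation p = 0.2), and D18 against D11 was 1.17-fold (exact permutation p = 0.5).

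The CD3 level, taken as the geometric mean of Cd3d, Cd3e and Cd3g, served to separate the coreceptors. The ratio of Cd4 to CD3 was 3.46, 2.42 and 2.73 at D0 and 1.34, 2.04 and 1.28 at D4. It was 0.969, 0.723 and 1.07 at D11 and 0.999, 1.04 and 0.588 at D18. All D0 samples lie above all D4 samples, and these above all D11 and D18 samples. The ratio differed among the days (exact permutation p = 0.000974, adjusted p = 0.0026). The ratio of Cd8a to CD3 was 1.42 ± 0.0541 at D0 and 1.401 ± 0.267 at D4, and 1.77 ± 0.0515 at D11 and 1.95 ± 0.123 at D18. It differed among the days (exact permutation p = 0.0119, adjusted p = 0.0191), and the later groups lie above both earlier ones, with the closest samples at 1.71 (D4 replicate 3) and 1.72 (D11 replicate 1). Cd8b1 to CD3, at 1.13 ± 0.101, 0.915 ± 0.174, 1.04 ± 0.0735 and 1.06 ± 0.0245 in day order, did not pass (exact permutation p = 0.161, adjusted p = 0.184). Log2 differences from D0 were -0.31 ± 0.17, -0.11 ± 0.09 and -0.09 ± 0.08 (SE), and without D4 replicate 3 the ratio passes (adjusted p = 0.00883).

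The chains of CD8 thus did not move by equal amounts. The ratio of Cd8b1 to Cd8a was 0.900, 0.729 and 0.760 at D0 and 0.686, 0.625 and 0.649 at D4. It was 0.583, 0.618 and 0.559 at D11 and 0.502, 0.542 and 0.584 at D18. Each D0 sample lies above each D4 sample and each D4 sample above each D11 and D18 sample, while the last groups overlap. The mean fell from 0.796 ± 0.0912 to 0.654 ± 0.0308, 0.587 ± 0.0295 and 0.543 ± 0.0408 (exact permutation p = 0.000325, adjusted p = 0.0026). In log2 units, D18 stood 0.55 ± 0.11 below D0. A ratio of counts alone shows unequal change and not which chain moved. By the limma test above both genes rose from D0 to D18, Cd8a by 2.63 and Cd8b1 by 2.08 on the log2 scale.

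Within CD3, the ratio of Cd247 to CD3 was on average highest at D4 and lowest at D18. Its values were 0.354, 0.376 and 0.359 at D0 and 0.505, 0.414 and 0.427 at D4. It was 0.355, 0.344 and 0.443 at D11 and 0.291, 0.312 and 0.286 at D18. The D4 samples lie above and the D18 samples below all D0 samples, and the days differed (exact permutation p = 0.00234, adjusted p = 0.00468). The ratio of Cd3d to Cd3e went from 1.66 ± 0.391 to 1.45 ± 0.317, 1.20 ± 0.157 and 0.993 ± 0.159, which did not pass after adjustment (exact permutation p = 0.0479, adjusted p = 0.0639). It passes without D0 replicate 3 (adjusted p = 0.0347) or D4 replicate 2 (adjusted p = 0.0489). Cd3g to Cd3e did not pass (exact permutation p = 0.425, adjusted p = 0.425); its log2 differences from D0 were -0.27 ± 0.23, -0.23 ± 0.22 and -0.08 ± 0.22, and without D0 replicate 3 the adjusted p was 0.0188.

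**Figure D3:**
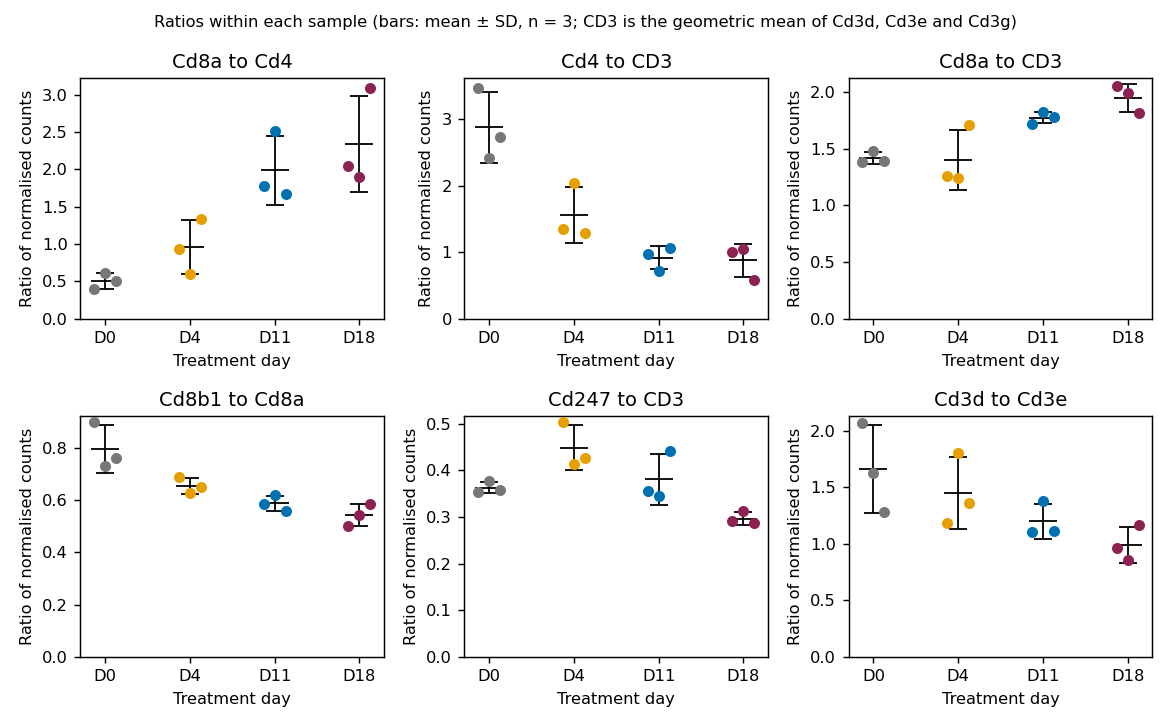
Ratios of normalised counts within each sample (vertical axes, each from 0) by treatment day (horizontal axes), with 1 point per sample and bars for the mean ± SD of 3 samples. Cd8a to Cd4 goes from a mean of 0.507 at D0 to 2.35 at D18, whereas Cd4 to CD3 and Cd8b1 to Cd8a are highest at D0.

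Levels of different genes can be compared only per length, and here the order depends on the length. Per kb of principal transcript, mean levels at D0 ran from 257 ± 65.1 normalised counts per kb for Cd3g through Cd4 (229 ± 37.4), Cd3d (198 ± 56.4), Cd8b1 (192 ± 47.5), Cd3e (140 ± 57.8) and Cd8a (117 ± 39.7) to 57.6 ± 19.3 for Cd247. The sample ranges of neighbours in that order overlap or touch throughout. At D18 Cd3g, at 1307 ± 201 per kb, lay above all samples of the next gene, Cd8b1 (811 ± 172). Cd3e, Cd8a and Cd3d followed at 720 ± 119, 704 ± 96.6 and 654 ± 201, overlapping each other and Cd8b1. Cd4 at 309 ± 46.2 and Cd247 at 207 ± 37.8 lay below these and apart from each other. Cd4 went from rank 2 at D0 to rank 6 at D11 and D18. Per kb of all annotated exon bases, Cd8b1 and not Cd3g ranked 1 at D0, D11 and D18, and Cd247 again ranked 7.

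The remaining parts of the receptor split by type. Of 7 constant chain genes, 1 rose at D4 and 3 rose at D11 and D18 (Trac, Trbc1 and Trbc2, of the alpha-beta receptor), and none fell. The shares of all genes that rose were 2.40% at D4, 3.20% at D11 and 5.29% at D18. The list's median change was 0.64, 0.36 and 0.25 on the log2 scale. Trac had 186 ± 47.3 counts at D0, then 421 ± 109 at D4 (log2 change 1.18 ± 0.23, adjusted p = 0.0123), 780 ± 93.9 at D11 (2.09 ± 0.23, adjusted p = 0.000102) and 935 ± 265 at D18 (2.32 ± 0.23, adjusted p = 2.2e-05). Trbc2 had 242 ± 84.0, 436 ± 114, 833 ± 80.0 and 936 ± 222 in day order, and Trbc1 209 ± 61.9, 426 ± 127, 663 ± 27.9 and 672 ± 273. Both rose at D11 and D18, with log2 changes of 1.65 to 1.99 (adjusted p = 0.000156 to 0.00255). Near-identical sequence makes the split of reads between Trbc1 and Trbc2 uncertain. The gamma and delta constant genes Trgc1, Trgc2, Trgc4 and Trdc did not pass on any day. Trdc, the delta chain gene, had 45.7 ± 11.4 at D0, 52.3 ± 18.6 at D4, 25.0 ± 10.6 at D11 and 24.7 ± 3.06 at D18 (adjusted p = 0.170 at D18).

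Most genes of the proximal receptor signalling list rose at D11 and D18. Of its 21 tested genes, 3 rose and 1 fell at D4, 12 rose at D11 and 13 rose at D18, and none fell on the later days. Of all genes 2.40% rose and 2.24% fell at D4, 3.20% and 2.12% at D11, and 5.29% and 3.91% at D18. The list medians were 0.29, 0.72 and 0.76. Zap70, the kinase that docks on phosphorylated zeta and CD3 tails, went from 172 ± 25.5 at D0 to 345 ± 88.6 at D4, 572 ± 64.4 at D11 and 714 ± 102 at D18, with log2 changes of 0.98 ± 0.18 (adjusted p = 0.0077), 1.74 ± 0.18 (adjusted p = 5.76e-05) and 2.05 ± 0.18 (adjusted p = 5.43e-06). Themis, an adaptor of T cell development that binds Grb2, rose from 84.7 ± 21.8 to 231 ± 73.3, 526 ± 115 and 543 ± 21.2. Fyn, an Src family kinase also made by other blood cells, rose from 1239 ± 73.4 at D0 to 2234 ± 151 at D11 and 2527 ± 209 at D18, a log2 change of 1.03 ± 0.08 at D18 (adjusted p = 2.09e-06). The gene that fell at D4 was Ptpn6, a phosphatase abundant in myeloid cells, at 8867 ± 486 and 7399 ± 364 (log2 change -0.26 ± 0.07, adjusted p = 0.0382).

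Most companions of the CD8 lineage and of cytotoxic function rose at D11 and D18, as Cd8a did. Of all genes, 2.40% rose at D4, 3.20% at D11 and 5.29% at D18, when 3.91% fell. Of 13 genes, 5 rose at D4, 10 at D11 and 9 at D18, when 1, Gzma, fell; Tbx21 and Itgae passed on no day, and the list medians were 0.59, 1.44 and 1.92. Gzmk, a granzyme gene, went from 6.00 ± 2.65 at D0 to 171 ± 53.9, 761 ± 117 and 1004 ± 175, with log2 changes of 4.63 ± 0.26, 6.82 ± 0.26 and 7.22 ± 0.26 (adjusted p = 2.46e-07, 6.92e-09 and 3.23e-09). Ccl5, a chemokine gene of effector cells, went from 450 ± 117 to 5830 ± 1399 at D18 (log2 change 3.70 ± 0.24, adjusted p = 4.81e-07). Klrg1, a receptor of effector cells, rose from 16.7 ± 3.51 to 97.0 ± 34.4 at D4, 231 ± 13.4 at D11 and 214 ± 47.0 at D18 (log2 changes of 2.42 to 3.73). Gzma stood at 322 ± 38.2 at D0 and 141 ± 72.9 at D18 (log2 change -1.31 ± 0.29, adjusted p = 0.0115). Natural killer cells also express it, and Eomes and Prf1, which rose, are among the natural killer cell markers above. Which cells the changes of this list came from was not tested. Runx3, the transcription factor of the CD8 lineage, rose at D18 by 0.76 ± 0.11 (adjusted p = 0.000641).

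The CD4 helper list was mixed. Of all genes 2.40% rose and 2.24% fell at D4, 3.20% and 2.12% at D11, and 5.29% and 3.91% at D18. Of 13 genes 1 rose and 2 fell at D4, 5 rose and 2 fell at D11, and 6 rose and 2 fell at D18, with medians of 0.24, 0.17 and 0.36. Zbtb7b, which encodes the CD4 lineage factor ThPOK and is also made outside T cells, stood at 3617 ± 410, 3297 ± 597, 3621 ± 153 and 3443 ± 243 in day order (adjusted p = 0.533, 0.984 and 0.782). Cd40lg, the helper ligand for B cells, was low, between 5 and 22 counts in every sample, and did not pass. Tox2, a factor of follicular helper and also of exhausted CD8 T cells, rose from 20.3 ± 7.77 at D0 to 103 ± 11.9 at D11 and 197 ± 45.4 at D18 (log2 change 3.25 ± 0.25 at D18, adjusted p = 1.87e-06). Ctla4, an inhibitory receptor of regulatory and activated T cells, rose from 38.0 ± 7.55 to 131 ± 63.7, 107 ± 8.89 and 198 ± 47.5. Bcl6, a factor of follicular helper T cells and germinal centre B cells, fell from 1541 ± 97.0 to 983 ± 139 at D4 (log2 change -0.66 ± 0.10, adjusted p = 0.00206) and to 1202 ± 55.4 at D18 (adjusted p = 0.0391). Cxcr5, a receptor shared with mature B cells, fell on each day. All 11 mature B cell markers fell at D11 (5 at D4 and 9 at D18). Which cells the changes of the helper genes came from was not tested.

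Of 7 genes of early T cell precursors and thymocytes, Themis rose at D4, and Themis and Bcl11b at D11 and D18. Both are also expressed by mature T cells. Of all genes, 2.40% rose at D4, 3.20% at D11 and 5.29% at D18. Bcl11b, a T lineage factor, went from 167 ± 54.4 at D0 to 507 ± 21.6 at D11 and 566 ± 59.7 at D18 (log2 changes of 1.66 and 1.81, both ± 0.23, adjusted p = 0.000666 and 0.000208). Cd1d1, which presents lipids to natural killer T cells, had 542 ± 77.1 at D0, 634 ± 12.9 at D4, 519 ± 35.7 at D11 and 596 ± 34.5 at D18, and did not pass on any day. Immediate early genes, which respond to stimulation and to tissue handling, were also higher on treated days: 8 of 9 rose at D4, 7 at D11 and 6 at D18, with sums of 10193 to 15628 counts at D0, 67171 to 80902 at D4 and 16456 to 26119 on the later days. They were highest at D4, when 1 of the 7 receptor genes rose, and their part in those values was not tested.

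**Figure D4:**
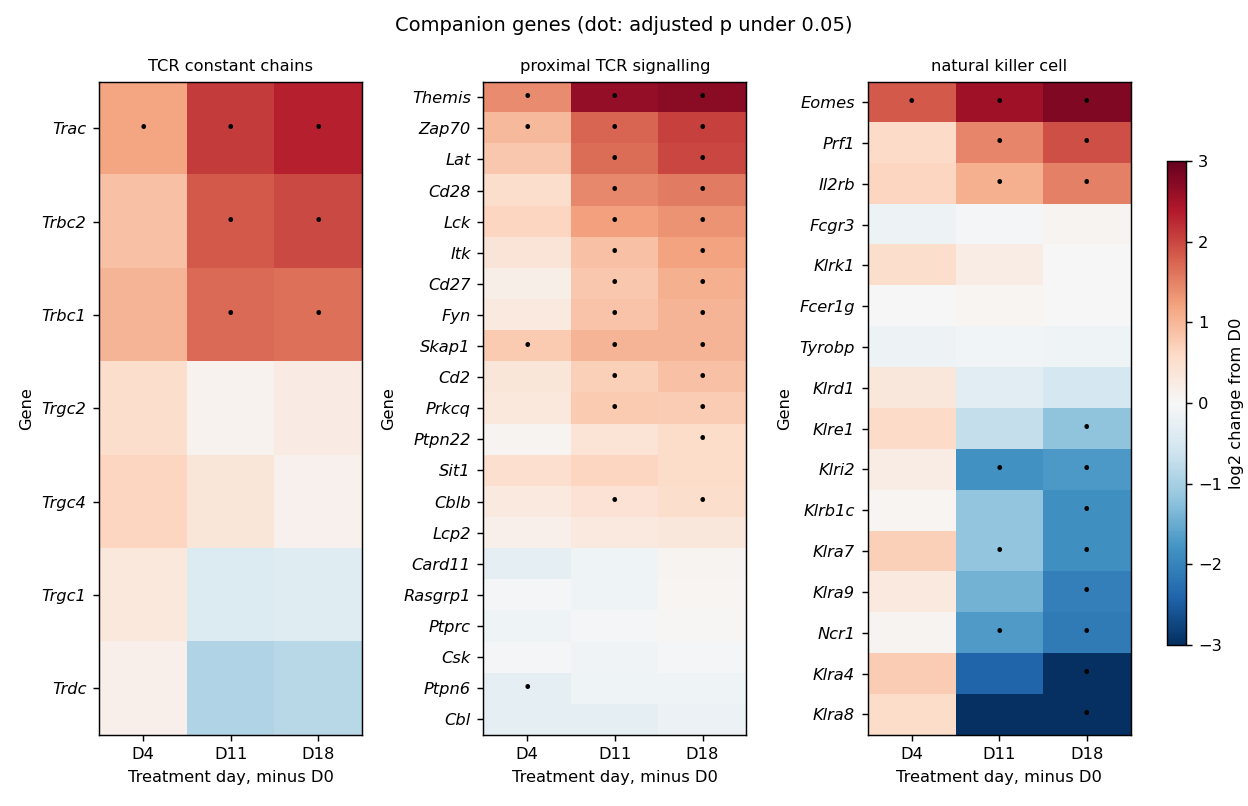
Log2 change from D0 (colour, with values beyond 3 in either direction shown at the end of the scale) for tested genes of 3 lists (rows) at D4, D11 and D18 (columns); a dot marks an adjusted p under 0.05. Trac, Trbc1 and Trbc2 carry dots at D11 and D18, no gamma or delta constant gene does, and 8 natural killer cell markers carry dots on blue at D18.

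Across the 12 samples, the 4 CD3 genes and both CD8 genes ran closely together and Cd4 less so. Pearson correlations of log2 values among these 6 genes lay between 0.926 (Cd247 with Cd8b1) and 0.995 (Cd3g with Cd8a), and with Cd4 between 0.567 and 0.708. Once each day's mean was taken out, the 6 genes still gave 0.821 to 0.966, and Cd4 gave 0.0444 (with Cd3d) to 0.486 (with Cd3e). The points share libraries, so these are descriptions of these samples only. The gene most like the CD3 mean was Lat, the adaptor phosphorylated by ZAP-70 (r = 0.996), followed by Acsbg1, an acyl-CoA synthetase gene (0.993), Trbc2 (0.992), Gimap7 (0.992) and Bcl11b (0.986). Lat went from 273 ± 78.8 at D0 to 473 ± 103, 852 ± 41.1 and 1086 ± 291. For Cd8a the closest were Acsbg1 (0.989), Bcl11b (0.988), Gimap7 (0.986), Cd28 (0.984) and Lat (0.983). For Cd8b1 they were Acsbg1 (0.990), Cd27 (0.985), Wdr95 (0.983), Bcl11b (0.983) and Gimap7 (0.979).

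Cd247 ran closest to Thy1, a surface glycoprotein gene of mouse T cells (r = 0.995), then to Trac (0.983), Trbc2 (0.982), Lck (0.977) and Trbc1 (0.976). Thy1 had 499 ± 112, 922 ± 246, 1561 ± 152 and 1508 ± 313 in day order. The genes most like Cd4 had lower correlations, and none was among those closest to the other members. They were Fbn1, which encodes the matrix protein fibrillin (0.918), Prkca (0.917), Poglut2 (0.905), Cdh5, an endothelial cadherin gene (0.903), and Setbp1 (0.894). The cells behind this likeness were not tested. Cdh5 had 168 ± 25.5, 134 ± 10.7, 162 ± 31.9 and 202 ± 31.9 counts, and Fbn1 46.0 ± 15.7, 38.7 ± 3.51, 59.0 ± 22.7 and 97.7 ± 5.69. All of these were picked as the highest of 14883 genes.

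The nearest protein-coding genes in the table mostly did not pass the test. Beside the CD3 cluster, Ube4a, 3.972 kb from Cd3g, had 2416 ± 186 counts at D0 and 2318 ± 366 at D18 (adjusted p = 0.726). Beside Cd8a, Rmnd5a, 9.461 kb away, had 3205 ± 171 and 2967 ± 256 (adjusted p = 0.366). On the other side Smyd1, a methyltransferase gene that starts 0.555 kb from the start of Cd8b1 and is read in the other direction, was low but rose with it, from 5.33 ± 0.577 at D0 to 13 ± 3.61 at D4, 25.3 ± 8.50 at D11 (log2 change 2.01 ± 0.34, adjusted p = 0.00302) and 23.0 ± 6.93 at D18 (1.88 ± 0.34, adjusted p = 0.00311).

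At the Cd4 locus the neighbour moved more than the member. Lag3, 16.14 kb from Cd4, encodes an inhibitory receptor that binds MHC class II, as CD4 does. It had 352 ± 44.1 counts at D0 and 378 ± 33.7 at D4 (adjusted p = 0.624), and rose to 688 ± 57.9 at D11 (log2 change 0.97 ± 0.11, adjusted p = 8.65e-05) and 1256 ± 89.2 at D18 (1.84 ± 0.11, adjusted p = 2.04e-07). It was higher at D18 than at D11 by 0.87 ± 0.11 (adjusted p = 0.0168), the 1 gene of 14883 with such a call. Gpr162, 0.709 kb on the other side of Cd4, had 81.3 ± 9.50 at D0 and 60.0 ± 7 at D18 (adjusted p = 0.123). Creg1, 13.37 kb before Cd247, had 3104 ± 170 and 2617 ± 228 (adjusted p = 0.0507).

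**Figure D5:**
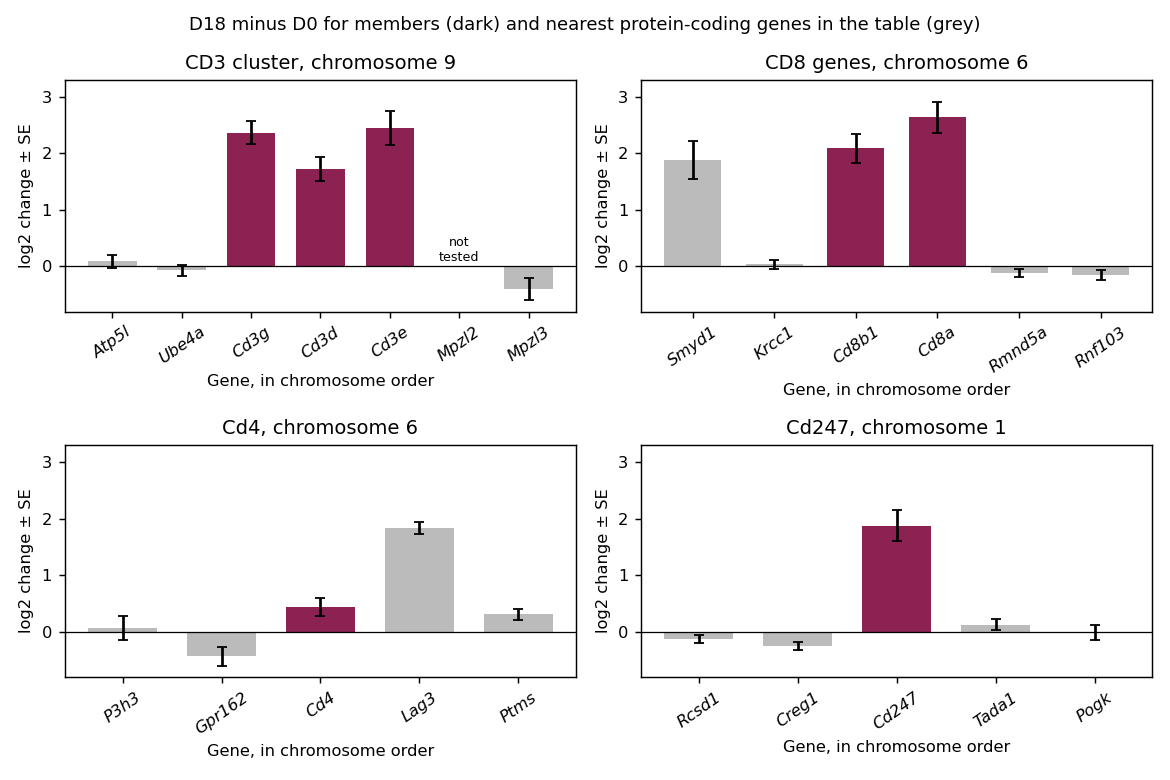
Log2 change from D0 to D18 ± SE (vertical axes) of the members (dark bars) and of their nearest protein-coding genes in the table (grey bars), in chromosome order (horizontal axes). Among the grey bars Smyd1 and Lag3 stand out, at 1.88 and 1.84, and Mpzl2 was too low to be tested.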

How the data were processed

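Per the labels' protocols, libraries of 12 marrow RNA samples were made with a stranded mRNA kit. STAR 2.3.0, Subread featureCounts 1.4.6, limma and GRCm38 are named in the submitters' processing notes, without their roles. The values were deposited by the authors as normalised counts rounded to whole numbers, a score whose scaling is not given in the sources used here. All 23134 identifiers were found in GENCODE M21. The filter on low values asked for 10 normalised counts or more in 3 or more samples (14883 genes passed; 8251 were removed), and values were transformed as log2(value + 1) and fitted in limma 3.58.1 (R 4.3.3) with a mean per group over all 12 samples and an intensity trend. Fold changes are on that log2 scale, which understates changes of low genes. Tests were two-sided, Benjamini-Hochberg adjusted over all genes tested within each comparison, at 0.05, and the fit was tested on simulated data. Ratios were tested by exact permutation of all 12 samples (scipy 1.17.1), where the smallest possible p is 6.49e-05. Reads per sample were estimated on the assumption of 1 scaling factor per sample. No library was a copy of another: of 66 pairs of samples, none had over 0.928% equal values. Other genes named are the 3 with the smallest F-test p of each T cell list, the 5 most correlated with each member, members of a described list, and nearest neighbours. Members and lists were chosen with earlier results of these data known. Alternatives covered pseudocount, filter, rescaling, trend, sample weights, groups fitted, depth and each left-out sample.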

Additional observations from a re-analysis of the deposited data

Results flagged for a closer look

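These 8 changes differed between treated days, by the limma test of the difference between their changes from D0; since D0 is common to both, that is the test of one day against the other. At D11 the change from D0 exceeded that at D4 by 1.19 for Cd3g, 1.44 for Cd8a and 1.28 for Cd8b1 on the log2 scale. At D18 it exceeded that at D4 by 0.97 for Cd3d, 1.50 for Cd3e, 1.69 for Cd3g, 1.88 for Cd8a and 1.61 for Cd8b1. Their tests stand in the report. D4 libraries were also the shallowest, at 16 to 17.8 M estimated reads. With estimated depth as a covariate, the number of members that rose from D4 to D11 was 5, and the members' D4 calls against D0 numbered 0. Estimated depths of D0 and D4 do not overlap, so between these groups the covariate cannot tell depth from day.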

How the results depend on the processing

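No paired analysis was possible because the labels give no replicate numbers that tie samples together. Of 924 alternative values of the members' log2 changes, 867 kept direction and side of the threshold, 30 newly passed, 20 no longer passed and 7 reversed. The reversed values were small: with the depth covariate, Cd8b1 and Cd4 at D4 against D0 (-0.086 and 0.043) and Cd247 at D18 against D11 (0.016); and Cd3d at D18 against D11 with sample weights (-0.041). With 1 sample left out, Cd3d at D18 against D11 ranged from -0.165 to 0.218, negative without D18 replicate 3, and Cd247 from -0.176 to 0.087, positive without D11 replicate 3 or D18 replicate 1. The count of members that rose at D11 against D0 was 6 in all 22 alternatives run, and at D18 against D0 6 or 7. At D4 against D0 it was 1, but 0 without the intensity trend, with only the groups compared or with the depth covariate, 5 with sample weights, and 0 to 4 with 1 replicate left out. At D11 against D4 it was 3, but 0 without the intensity trend, 5 with sample weights, only the groups compared or the depth covariate, and 1 to 5 with 1 replicate left out. The ratios Cd8a to Cd4, Cd4 to CD3, Cd8b1 to Cd8a, Cd8a to CD3 and Cd247 to CD3 passed in all 15 alternatives each, at adjusted p = 0.00104 to 0.0494. With 1 replicate left out, adjusted p ranged from 0.0347 to 0.179 for Cd3d to Cd3e, from 0.0188 to 0.631 for Cd3g to Cd3e and from 0.00883 to 0.525 for Cd8b1 to CD3. Counts of genes called moved by over 1.5 times in 50 of 153 alternatives, ranging from 67 to 1817 at D4 (main 691), 407 to 1914 at D11 (792), 804 to 2056 at D18 (1369), 136 to 763 for D11 against D4 (250), 339 to 1844 for D18 against D4 (815) and 0 to 151 for D18 against D11 (1), and 872 to 3154 for any difference (1410). The cause was not tested. With 3 samples a group, the exact permutation test used here cannot pass 0.05 for a pair of days on a ratio.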
